A study of Sus scrofa with 14 samples.

Results

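The swine leukocyte antigen (SLA) class I molecules, their light chain and the peptide transporter that loads them were examined in perfused loops of pig small intestine (the SISP model, in which segments with intact blood supply are perfused in the anaesthetised animal). The 10 genes were SLA-1, SLA-2, SLA-3, SLA-5, SLA-6, SLA-7, SLA-8, B2M, TAP1 and TAP2. Probes were taken where the RefSeq accession in the scanner files belongs to 1 of these genes. This gave 21 of the 43603 probes of the array and 8 of the 10 genes, among 3020 genes named in this way, since no probe was named SLA-1 or SLA-2. SLA-3 had 7 probes, SLA-8 had 4, SLA-5, B2M, TAP1 and TAP2 had 2 each, and SLA-6 and SLA-7 had 1 each. Swine class I loci resemble one another closely, and the reference table lists SLA-1 and SLA-7 as older names of the accession used for SLA-3. Which loci an SLA probe binds was not examined here, so the locus names are those of the accessions.

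All segments came from the jejunum of male piglets of 5 weeks and 8.2 kg under anaesthesia. Segments between 31% and 58% of the length of the small intestine were filled with 20 ml of a digest and perfused for 6 h. Saline digest (Sd) segments received a saline control digest diluted in saline, whereas yellow onion digest (YOd) and white onion digest (WOd) segments received an onion digest made with the same enzymes and diluted in peptone at another ratio. The digest and its diluent therefore cannot be told apart in onion/Sd ratios. Pigs 1, 2 and 4 gave 1 Sd and 1 YOd segment each, and pigs 5, 6, 7 and 8 gave 1 Sd and 1 WOd segment each, so 14 one-colour Agilent arrays were available, with n = 7 for Sd, n = 3 for YOd and n = 4 for WOd. Strain and SLA type of the pigs are not given in the sources used here.

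Class I molecules display peptides of cytosolic proteins on the cell surface to CD8 T cells and to natural killer cell receptors. Proteasomes cut the peptides, TAP1 and TAP2 together pump them into the endoplasmic reticulum, and there they are loaded onto a heavy chain paired with beta-2-microglobulin, the product of B2M. SLA-1, SLA-2 and SLA-3 are the classical, highly polymorphic heavy chains of the pig, and SLA-6, SLA-7 and SLA-8 are non-classical loci with little polymorphism. Interferons raise the transcription of most of these genes, and enterocytes as well as intraepithelial lymphocytes express them.

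The signal was the background-subtracted spot intensity of Feature Extraction, scaled to the 75th percentile of the array and given as log2. Arrays ranged from 50.6% to 70.7% of probes well above background and from 546 to 964 saturated probes. The 75th percentile ranged from 385 to 795 scanner units. The scrapings showed absorptive epithelium, as 6 of the 10 enterocyte markers were named and all 6 were saturated on 13 or 14 arrays. The 14 arrays lay on 5 slides, and the scanner files show that slide 5 was scanned in another session. Slide 1 held YOd of pig 2 and both arrays of pig 4, slide 2 both arrays of pig 1, slide 3 both arrays of pigs 6 and 8, slide 4 both arrays of pig 5 and WOd of pig 7, and slide 5 Sd of pigs 2 and 7. Pigs 2 and 7 thus had their arrays on 2 slides. Slides 2 and 4 stood apart from the others, a grouping chosen after the values were seen: 1072 of 26013 probes (4.12%) were lower on every one of their 5 arrays than on every one of the other 9 arrays, 265 of them by over 2-fold, while 381 were higher and 0 of these by over 2-fold. The Sd segment of pig 6 also stood apart. The B lymphocyte marker MS4A1 (B cell surface CD20) was at 0.92 there, against -3.00 or less in the other 6 Sd segments.

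The brightest heavy chain probes and B2M were at the upper limit of the scanner. Both B2M probes, 5 of the 7 SLA-3 probes and the SLA-5 probe A_72_P441848 were saturated on all 14 arrays. These were 8 of 21 member probes (38.1%), whereas 1.04% of all probes were saturated on all 14 arrays. Of the remaining SLA-3 probes, A_72_P440386 was saturated on 13 arrays and A_72_P517623 on 7. The other 11 probes, which cover SLA-5, SLA-6, SLA-7, SLA-8, TAP1 and TAP2, were never saturated.

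**Figure D1:**
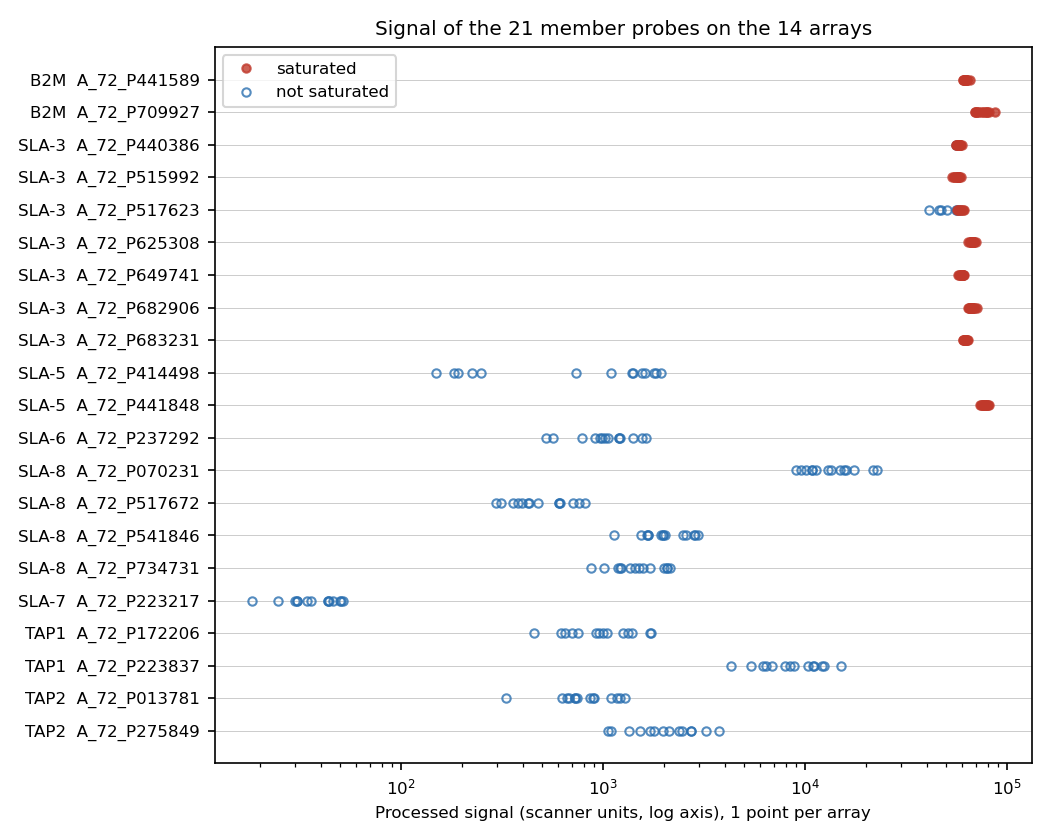
Processed signal in scanner units (log axis) of each of the 21 member probes, 1 point per array and 14 arrays per probe, with saturated spots filled. The B2M and SLA-3 probes and 1 SLA-5 probe form a column at the right, while SLA-7 lies far to the left with signals between 18.2 and 51.8.

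The saturated probes carry no usable difference between segments. Their signals on the 14 arrays lay between 53653 and 86949 in all, and for a single probe the highest array exceeded the lowest by 1.07-fold to 1.25-fold. After division by the 75th percentile the same probes ranged over 0.98 to 1.13 on the log2 scale. The 75th percentile itself ranged over 1.04 on that scale, and for all 8 probes the scaled value was highest on the array with the lowest percentile (Sd of pig 5) and lowest on the array with the highest (Sd of pig 4). In pig 4, for example, the percentile was 795 in the Sd segment and 515 in the YOd segment. The log2 YOd/Sd ratio of the 9 probes of B2M and SLA-3 lay between 0.45 and 0.67 there. No fold change is therefore given for B2M or SLA-3 or for the saturated SLA-5 probe.

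**Figure D2:**
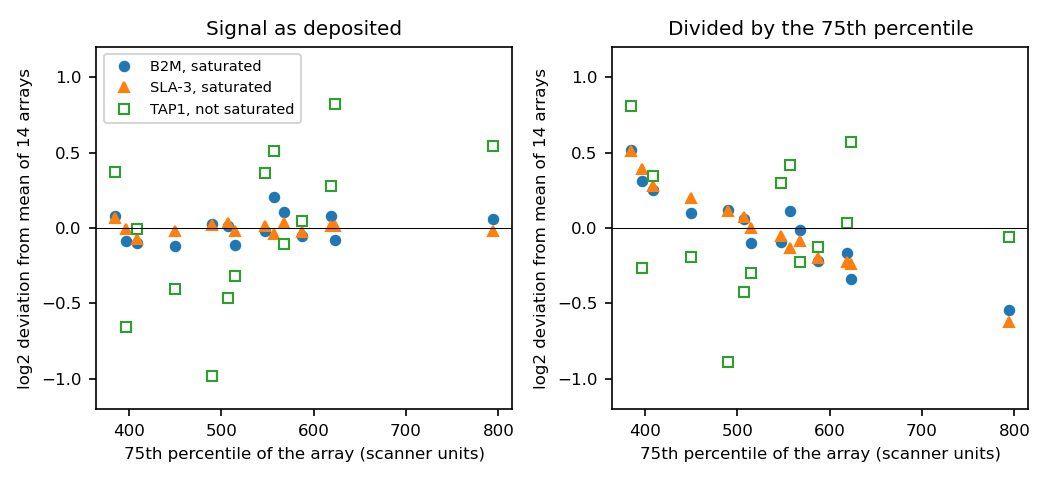
Deviation of the log2 signal from its mean over the 14 arrays (vertical axis) against the 75th percentile of the array (horizontal axis, scanner units), before scaling (left) and after it (right), for the brightest probes of B2M and SLA-3 (saturated) and of TAP1 (not saturated). The saturated probes are flat before scaling and fall with the percentile after it.

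The probe A_72_P517623 of SLA-3, which was saturated on 7 arrays only, could be read below the limit in some segments. Its signal was 40952 and 46803 in Sd of pigs 6 and 7, 45840 and 50532 in WOd of pigs 5 and 6, and between 55717 and 61365 on the other 10 arrays. The lowest readings were thus in pigs 5, 6 and 7, and all 3 YOd arrays and the Sd arrays of the same pigs were within 55717 to 58845.

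SLA-6 is a non-classical class I gene. In the Sd segments of pigs 1, 2, 4, 5, 6, 7 and 8 its level was 0.21, 1.33, 0.37, 1.33, 0.21, 0.75 and 1.39, respectively. Pigs 1, 4 and 6 were low and pigs 2, 5 and 8 high, over a 2.26-fold range. The SD over the 7 segments was 0.54, and 76.4% of the 18532 probes that were well above background and unsaturated on all arrays had a smaller one. In the YOd segments SLA-6 was 0.99, 1.10 and 1.22, and in the WOd segments 1.36, 0.84, 1.10 and 1.37 (pigs 5 to 8). The onion segments lay between 0.84 and 1.37, inside the range of the Sd segments.

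SLA-8, another non-classical gene, was represented by 4 unsaturated probes. For the brightest, A_72_P070231, the Sd levels in ascending order were 4.29 (pig 4), 4.36 (pig 6), 4.59 (pig 1), 4.69 (pig 2), 4.81 (pig 5), 4.90 (pig 7) and 5.12 (pig 8). Its SD of 0.29 was larger than that of 26.3% of the comparable probes, and the probes A_72_P541846 and A_72_P734731 had SDs of 0.31 each. Probe A_72_P517672 had an SD of 0.38. Over the brightest unsaturated probes of the 6 genes that have one, that of SLA-8 had the smallest SD.

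SLA-7 was near the detection limit. Its signal was 18.2 to 51.8 over a local background of 19 to 21 per array, and it was well above background on 12 of 14 arrays. The level lay between -4.43, the floor, in Sd of pig 8 and -2.99 in YOd of pig 1.

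TAP1, which encodes the first chain of the transporter, was highest in Sd of pig 5 (4.84) and pig 8 (4.59) and lowest in pig 6 (3.14). The 4 remaining pigs lay close together between 3.84 and 4.06. The SD was 0.55 and the range 3.24-fold. TAP1's other probe, A_72_P172206, gave the same pigs as highest (2.16 in pig 5, 1.09 in pig 8) and lowest (0.34 in pig 6). Before scaling, the brightest probe read 15048 in pig 8, 12432 in pig 4 and 11004 in pig 5. The other probe was highest in pig 5 before scaling as well (1718).

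TAP2, the second chain, was at 3.07 in Sd of pig 5 and 1.11 in pig 6, with 1.59 to 2.13 in the others. The range was 3.88-fold and the SD 0.60, larger than in 81.7% of the comparable probes. Its second probe A_72_P013781 was also highest in pig 5 after scaling, but lowest in pig 7 (0.30). Before scaling, the brightest probe was still highest in pig 5 (3230) and lowest in pig 6 (1058). The second probe was not highest in pig 5 before scaling: it read 1216 in pig 4, 1166 in pig 8 and 1090 in pig 5. Its lowest unscaled signal was 659 in pig 1.

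**Figure D3:**
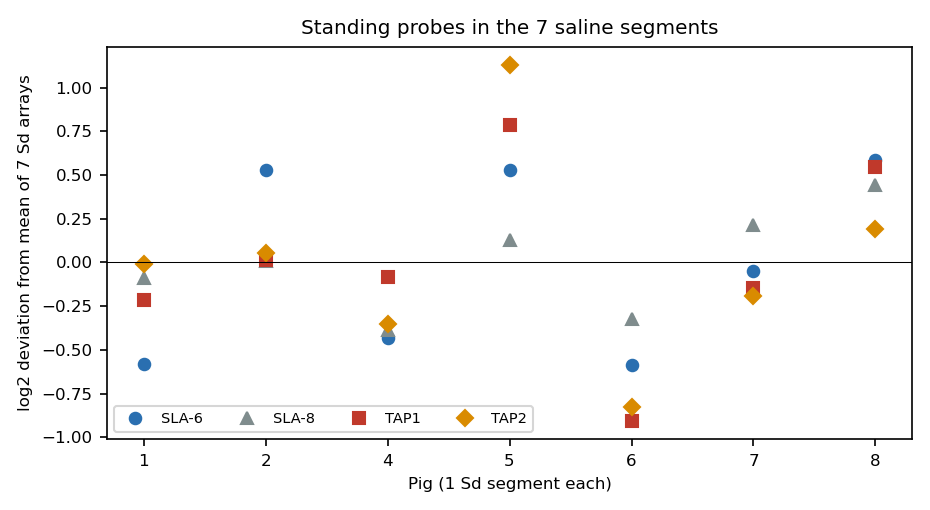
Level of the brightest unsaturated probe of SLA-6, SLA-8, TAP1 and TAP2 in the Sd segment of each pig, as the log2 deviation from the probe's mean over the 7 Sd arrays. TAP1 and TAP2 are highest in pig 5 and lowest in pig 6, and SLA-8 covers the smallest range.

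Levels in the 7 Sd segments were compared between these genes, and the same was done for the ratios, which gave 12 relations. TAP1 and TAP2, whose loci neighbour each other with the proteasome genes PSMB8 and PSMB9 in the reference, had a Pearson's r of 0.91 (exact permutation p = 0.00853, adjusted 0.0512) and a Spearman's rho of 0.86 (exact permutation p = 0.0238, adjusted 0.0952). SLA-6 and TAP1 had an r of 0.80 (exact permutation p = 0.00813, adjusted 0.0512) and a rho of 0.93 (exact permutation p = 0.00675, adjusted 0.0810). Without the 2 pigs farthest from the median of the first gene, r was 0.66 for TAP1 with TAP2 and 0.58 for SLA-6 with TAP1. For the ratios of TAP1 and TAP2, r was 0.87 (exact permutation p = 0.0135, adjusted 0.0540), rho was 0.68 (exact permutation p = 0.110, adjusted 0.188) and r without the 2 farthest pigs was 0.26. No relation passed an adjusted p of 0.05, and the 3 named ones were weaker without 2 pigs. No slide held more than 2 Sd arrays, so no within-slide correlation was computed. On slide 3 pig 8 exceeded pig 6 by 1.17 for SLA-6, 1.45 for TAP1 and 1.01 for TAP2, and on slide 5 pig 2 exceeded pig 7 by 0.58, 0.16 and 0.24.

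T lymphocyte markers also differed between the Sd segments. Of the 11 markers, 7 were named and 6 of them never saturated, namely CD3D, CD3E, CD3G, CD2, CD4 and CD8A. The summed scaled level of these 6 was 15.8 (pig 5), 13.7 (pig 8), 9.12 (pig 2), 6.17 (pig 1), 5.74 (pig 4), 3.39 (pig 6) and 3.24 (pig 7) in the Sd segments. This sum follows the brighter CD3E and CD3G, at 2.74 and 2.86 in pig 5. The mean log2 level of the same 6 genes was instead highest in pig 8 (0.09), followed by pig 2 (-0.29) and pig 5 (-0.43). CD8A and CD4 were at -2.85 and -4.15 in pig 5, each higher in 5 of the 6 other pigs. Without CD8A the mean was highest in pig 5 (0.05), followed by pig 8 (-0.07) and pig 2 (-0.44). The sum ranged from 8.42 to 9.36 in the YOd and from 3.15 to 15.1 in the WOd segments. Pig 6 Sd, with the lowest TAP1, TAP2 and SLA-6, was also the segment with the B lymphocyte marker. The part of these cells in the levels was not tested, and in a scraping fewer cells of a type and less RNA per cell cannot be told apart. Of the 7 interferon response genes that were named and never saturated, 6 were lowest in Sd of pig 5 and 4 were highest in Sd of pig 6. MX2 and RSAD2, both antiviral effectors, ran from 0.88 and 2.54 in pig 5 to 4.58 and 6.43 in pig 6. GBP2, an interferon-induced GTPase, was the exception in pig 5 (5.09), with its lowest value in pig 1 (3.48) and its highest in pig 8 (6.39).

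The spread between pigs was tested with limma's moderated F-test over the 7 pigs, in which both segments of a pig count. Of 26013 probes, 8383 (32.2%) passed an adjusted p of 0.05, and 4 of the 11 unsaturated member probes did. These were SLA-5 A_72_P414498 (adjusted p = 0.00819), SLA-8 A_72_P517672 (adjusted p = 0.0194), SLA-7 (adjusted p = 0.0400) and TAP1 A_72_P223837 (adjusted p = 0.0458). The other TAP1 probe had an adjusted p of 0.0506, the brightest TAP2 probe 0.0794 and SLA-6 0.108. The brightest SLA-8 probe had 0.193. Which members passed changed with the scaling. Without scaling between arrays SLA-7 (adjusted p = 0.218) and TAP1 A_72_P223837 (adjusted p = 0.0771) did not pass. SLA-6 (adjusted p = 0.0408) and the brightest SLA-8 probe (adjusted p = 0.0457) then did, where 30.5% of all probes passed. In the authors' values SLA-7 (adjusted p = 0.636) and TAP1 A_72_P223837 (adjusted p = 0.0788) did not pass either. SLA-5 A_72_P414498 and SLA-8 A_72_P517672 passed in both settings. With the slide as a block 11.1% of all probes passed and SLA-8 A_72_P517672 was the single member left (adjusted p = 0.0488), at -0.74 and -0.70 in both segments of pig 6 and at 0.39 and 0.47 in those of pig 8 on the same slide. With pig 7 left out 35.9% of all probes passed and so did 6 members, as the second TAP1 probe and the brightest TAP2 probe were added (adjusted p = 0.0231 and 0.0241). With pig 1, 2, 4 or 8 left out 2 members passed (21.2% to 30.4% of all probes), and with pig 6 left out 1 (20.9%). Over the 5 pigs whose arrays share a slide 6 members passed, as did 24.9% of all probes.

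SLA-5, a class I locus next to the classical ones, showed the widest spread through its unsaturated probe A_72_P414498. In ascending order the Sd levels were -1.24 (pig 1), -0.62 (pig 5), 0.32 (pig 7), 1.15 (pig 6), 1.17 (pig 4), 1.37 (pig 8) and 1.57 (pig 2). The SD was 1.09, and 97.6% of the comparable probes had a smaller SD. Its signal was 149 to 250 on the 5 arrays of slides 2 and 4 and 735 to 1925 on the 9 arrays of slides 1, 3 and 5, without overlap. This probe was the 1 of the 11 unsaturated member probes that was lower on all arrays of slides 2 and 4, where 4.12% of all probes were. CD8A, a T cell co-receptor, had the same arrangement, with -3.27 to -2.39 on slides 2 and 4 and -1.56 to 0.90 on the others. Pig and slide cannot be told apart for pigs 1 and 5, whose arrays all lay on slides 2 and 4. Pig 7 had arrays in both slide sets, and its Sd array on slide 5 read 735 whereas its WOd array on slide 4 read 182. With the slide as a block, the spread of this probe between pigs had an adjusted p of 0.269.

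**Figure D4:**
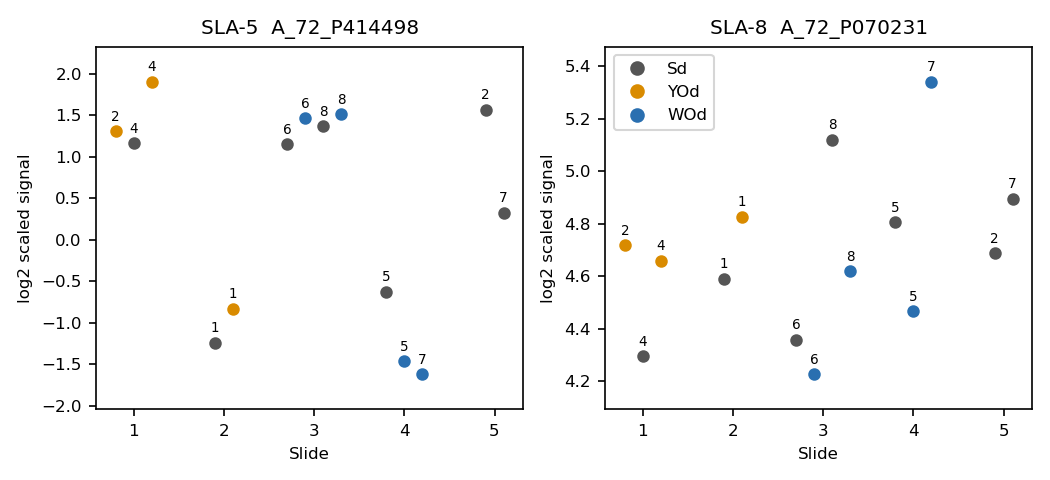
Scaled log2 signal of the unsaturated SLA-5 probe (left) and the brightest SLA-8 probe (right) on each array, by slide, coloured by digest and numbered by pig. All SLA-5 values on slides 2 and 4 lie below -0.5 and all others above 0.3, while SLA-8 on slide 4 runs from low to high.

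Whether onion digest changed these genes was then asked within each pig. In YOd/Sd 1298 of 26391 probes (4.92%) had a raw p below 0.05 and a change above 1.5-fold, in WOd/Sd 339 of 26098 (1.30%) and in onion/Sd over the 7 pigs 223 of 26013 (0.857%). None of the 11 unsaturated member probes passed in any of the 3 comparisons. At a raw p below 0.05 alone, 0 of 11 passed in YOd/Sd, where 11.9% of all probes did, 0 in WOd/Sd (3.13% of all) and 1 in onion/Sd (5.43% of all). By limma with Benjamini-Hochberg adjustment, 0 probes of the array passed an adjusted p of 0.05 in any of them, nor between the YOd and WOd effects. The comparisons share the Sd arrays and are not independent of each other.

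SLA-6 was the member that passed the raw p in onion/Sd. Its log2 ratio was 0.78, -0.23 and 0.85 in YOd pigs 1, 2 and 4, and 0.04, 0.63, 0.35 and -0.02 in WOd pigs 5 to 8. It was thus higher in 5 of 7 pigs, and above 1.5-fold in pigs 1, 4 and 6, which had the lowest scaled Sd levels. In pig 4, whose percentile was 795 in Sd and 515 in YOd, the log2 ratio before scaling was 0.23. Before scaling it was 0.60 in pig 1 and 0.68 in pig 6. The unscaled Sd signal of pig 4 (1024) was above that of pigs 5 (966) and 7 (987). The onion/Sd change was 0.34 (SE 0.15, 95% interval 0.0058 to 0.68, adjusted p = 0.860), or 1.27-fold. Without pig 6, whose Sd segment held the B cell marker, it was 0.30 (SE 0.17) and no longer passed the raw p, nor did it without pig 1 (0.27), pig 4 (0.26) or pig 7 (0.34). In YOd/Sd it was 0.47 (SE 0.24, adjusted p = 0.431) and in WOd/Sd 0.25 (SE 0.18, adjusted p = 1.00). Within slides, which leaves YOd pigs 1 and 4 and drops pig 2, SLA-6 was 0.82 higher (SE 0.17, adjusted p = 0.168), past the raw p and 1.5-fold, as were 12.7% of all probes in that fit. This probe is also on the study's list of probes that changed in these segments. It was taken here through its RefSeq accession, but that list comes from the same samples and is no independent evidence for its ratios.

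The 4 SLA-8 probes had onion/Sd changes between 0.0025 and 0.06. The brightest was higher in all 3 YOd pigs (0.24, 0.03 and 0.37) and lower in 3 of 4 WOd pigs (-0.34, -0.13, 0.45 and -0.50 in pigs 5 to 8). The higher value of pig 7 came from the pig whose arrays lay on 2 slides. The YOd effect exceeded the WOd effect by 0.34 (SE 0.26, adjusted p = 0.794), and in that comparison 0 of 11 member probes passed, where 5.65% of 28340 probes did. With pig 7 left out the difference was 0.53 (SE 0.21, adjusted p = 0.648). The probes A_72_P541846 and A_72_P734731 had -0.89 and -0.80 in pig 5, where A_72_P517672 had -0.07.

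TAP1 was lower in 5 of 7 pigs by its brightest probe. The log2 ratio was -0.07, -0.26 and -0.24 in YOd pigs 1, 2 and 4, and -0.47, 0.47, 0.54 and -0.27 in WOd pigs 5 to 8. The onion/Sd change was -0.04 (SE 0.14, 95% interval -0.36 to 0.28, adjusted p = 0.966). The second TAP1 probe had -0.06 (SE 0.18) and was lower in 4 of 7 pigs. It differed in sign from the brightest probe only in pig 8 (0.56), and in pig 1 it had -0.54.

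TAP2 had log2 ratios of -0.46, -0.34 and -0.20 in the YOd pigs and -0.70, 0.47, 1.01 and 0.18 in the WOd pigs. The onion/Sd change was -0.0051 (SE 0.19, 95% interval -0.44 to 0.43, adjusted p = 0.997), and the second TAP2 probe had -0.17 (SE 0.20). This second probe differed in sign from the brightest only in pig 1 (0.10), and in pig 4 it had -1.25. In all 3 YOd pigs both TAP1 probes and the brightest TAP2 probe were lower, as were 13.1% of all probes tested. The YOd/Sd change of the brightest TAP2 probe was -0.33 (SE 0.15, adjusted p = 0.421) and that of TAP1 -0.19 (SE 0.14, adjusted p = 0.529). For TAP2 the difference of the YOd from the WOd effect was -0.57 (SE 0.37, adjusted p = 0.787). With pig 5 left out, whose Sd segment had the highest TAP2, the difference was -0.89 (SE 0.27, adjusted p = 0.635), past the raw p and 1.5-fold like 7.11% of all probes in that fit. With pig 7 left out, whose arrays lay on 2 slides, it was -0.32 (SE 0.32, adjusted p = 0.788). Within slides it was also -0.32 (SE 0.38, adjusted p = 0.792).

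For both chains the lowest WOd ratio was in pig 5, highest in Sd, and pig 6, lowest in Sd, was higher after WOd. The highest ratio was not in pig 6 but in pig 7, at 0.54 for TAP1 and 1.01 for TAP2. The Sd levels of pig 7, 3.90 and 1.75, were above those of pig 6. Since the Sd level enters the ratio, the 2 quantities share a value, and no test was made.

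The unsaturated SLA-5 probe had log2 ratios of 0.41, -0.26 and 0.74 in the YOd pigs and -0.84, 0.31, -1.94 and 0.14 in the WOd pigs. The value of pig 7 crosses the slide sets described above. Over the 7 pigs the change was -0.21 (SE 0.28, adjusted p = 0.905), without pig 7 it was 0.08 (SE 0.19, adjusted p = 0.922), and within slides it was 0.15 (SE 0.21, adjusted p = 0.876). SLA-7 had 0.17 (SE 0.14, adjusted p = 0.860) from signals near background.

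**Figure D5:**
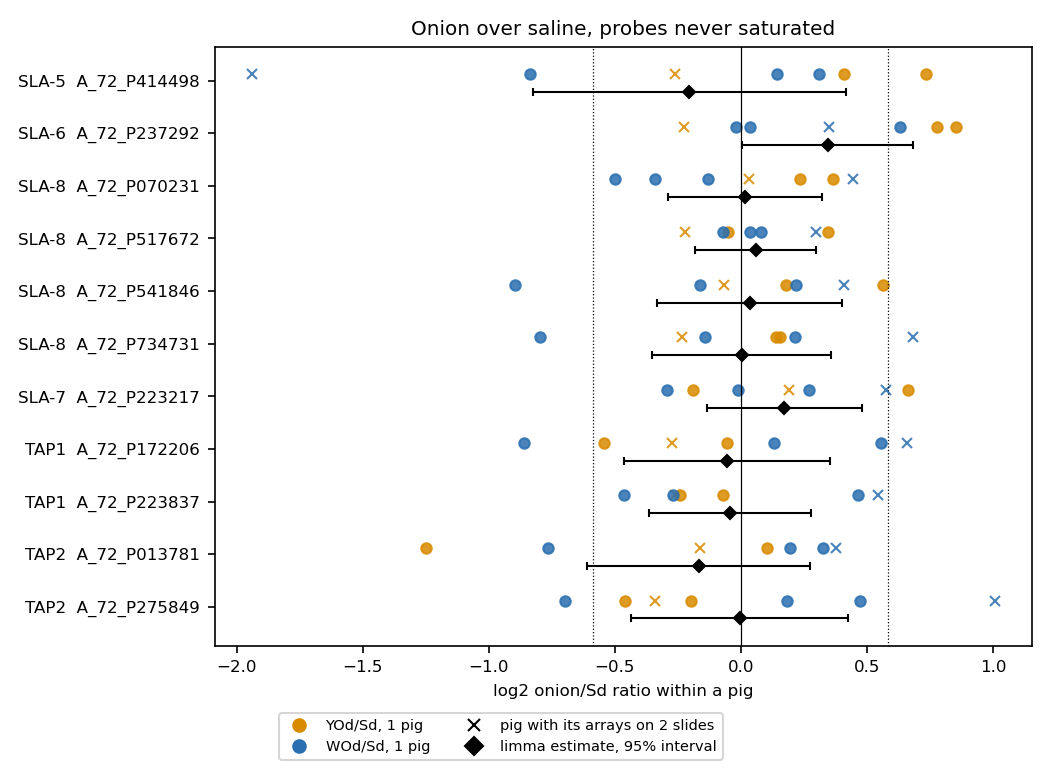
Log2 onion/Sd ratio of the 11 unsaturated member probes, 1 point per pig (YOd orange, WOd blue, crosses for pigs 2 and 7 with arrays on 2 slides), with the limma estimate over 7 pigs and its 95% interval in black and dotted lines at 1.5-fold. Most intervals span 0, that of SLA-6 begins at 0.0058, and pig 7 lies at -1.94 for SLA-5.

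The widths of these intervals show what the design could measure. For the brightest SLA-8 probe the 95% interval of the onion/Sd change ran from -0.29 to 0.32, which lies within 1.5-fold (0.58 on the log2 scale) on both sides. For the brightest TAP1 and TAP2 probes the onion/Sd intervals also lay within 1.5-fold. For SLA-6 the upper end was beyond it at 0.68. The lower end was beyond it for the SLA-5 probe (-0.83) and the second TAP2 probe (-0.61). These intervals pool both onions and do not bound each onion alone. In WOd/Sd the brightest probes ran from -0.61 to 0.34 for SLA-8, -0.46 to 0.60 for TAP1 and -0.41 to 0.90 for TAP2, each beyond 1.5-fold at 1 end. In YOd/Sd TAP2 was beyond it as well (-0.69 to 0.02), while SLA-8 (-0.15 to 0.58) and TAP1 (-0.54 to 0.16) were within it. A miss of the threshold does not show that the genes are alike in both segments.

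The rest of the class I pathway was followed through a list of 39 genes, of which 19 were named and 14 of these never saturated. Of the 14, 0 passed the raw p and 1.5-fold in YOd/Sd, WOd/Sd or onion/Sd, and 0 passed the raw p alone. Their median log2 change was 0.07 in YOd/Sd (0.07 over all probes tested), 0.04 in WOd/Sd (0.03 over all) and 0.07 in onion/Sd (0.04 over all). The immunoproteasome was bright: PSMB9, a catalytic subunit whose gene neighbours TAP1, was saturated on 14 arrays, PSME2, a proteasome activator subunit, on 13 and PSMB10 on 12. PSMB8, the catalytic subunit encoded beside TAP2, was not saturated. It was 4.29 in Sd of pig 6, 4.67 to 5.07 in pigs 1, 2, 4 and 5, 5.64 in pig 7 and 6.16 in pig 8, and its onion/Sd change was 0.03 (SE 0.11, adjusted p = 0.969). Pig 6 was lowest for PSMB8 as it was for TAP1 and TAP2, but pig 8 and not pig 5 was highest.

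Of the regulators, IRF1, an interferon-induced activator of class I transcription, had a log2 fold change of 0.19 (SE 0.15) in onion/Sd. CALR and CANX, the chaperones of the newly made heavy chain, had 0.06 (SE 0.14) and 0.08 (SE 0.11). TAPBP, which bridges heavy chain and transporter, had no named probe. NLRC5, the class I transactivator, was named only through the study's list, which was chosen on these samples, so its values are no independent evidence. Its log2 ratio was 0.73, 0.32 and 0.35 in the YOd pigs and 0.96, 0.79, -0.17 and 0.68 in the WOd pigs, higher in 6 of 7. KLRK1 and CD8A, receptors or co-receptors of class I and related ligands, were at 0.20 (SE 0.19) and -0.23 (SE 0.30), the latter with -2.33 in pig 7. FCGRT, a class I-like Fc receptor that also pairs with beta-2-microglobulin, was saturated on 14 arrays.

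Of the 17 interferon response genes 14 were named and 7 of them never saturated. In YOd/Sd 1 of the 7 was lower past the raw p and 1.5-fold, where 2.46% of all probes were, namely MX2 at -0.68 (SE 0.22, adjusted p = 0.417). Its ratios in the YOd pigs were -1.07, -0.07 and -0.90. The median of the 7 genes was -0.35 in YOd/Sd, and 0 of the 7 passed in WOd/Sd, with a median of -0.12. B2M and the classical heavy chains, which respond to the same interferons, cannot be set beside them because of saturation.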

How the data were processed

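Mucosal scrapings of 14 jejunal segments of 7 pigs were measured on one-colour arrays. The authors deposited scanner files made with Feature Extraction 10.7.3.1, which give each spot's processed signal, an intensity after background subtraction, and its flags. They also deposited log2 values of 28369 probes whose normalization is not given for the pig arrays (the label names RMA), used as an alternative. Pig 3 was not analysed here, and some listed genes are not reported here.

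Outlier spots were left out, spots of a probe averaged, the signal divided by the array's 75th percentile, floored at the pooled 40th percentile (log2 -4.43) and put on the log2 scale. Probes above the floor on at least as many arrays as the smaller group were fitted, all together, in limma 3.58.1 (R 4.3.3), with pig as a blocking factor, and p-values were Benjamini-Hochberg adjusted over all. Deviations from the group means of both segments of the same animal had an r of 0.308 to 0.703, each above that with every array of another pig (at most 0.374). Python 3.11.15 was used for the rest. The number of arrays limits the precision. On simulated data with independent noise and no slide effect, known changes were added to a sample of 26013 probes. There the onion/Sd fit called 100.0% of 2-fold changes and 0.577% of unchanged probes. The real arrays differed between slides, so these shares need not hold for them.

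Of 43603 probes 6686 were named through RefSeq accessions (Sscrofa11.1, names and neighbours only). Where 1 probe was used for a gene, it was the one with the highest mean level. The text names all members, PSMB8, PSMB9, TAPBP, NLRC5 and listed genes past the thresholds; IRF1, CALR, CANX, PSMB10, PSME2, KLRK1, FCGRT, RSAD2, GBP2 and marker genes were named after their values were seen. The members, the lists (loading complex, peptidases, immunoproteasome, regulators, class I-like, receptors and markers of T and B lymphocytes, macrophages, enterocytes, crypt, goblet, smooth muscle, endothelium and interferon response) and the tests were chosen with earlier results of these data known. Alternatives were the scaling, the background correction (normexp on the median signal, as the files lack the mean), the floor, the filter, the probe, the authors' values, the slide, the block and each pig left out.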

Additional observations from a re-analysis of the deposited data

Results flagged for a closer look

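In 44 sets of values, 4 held a segment far from the others, where chance gives about 1 in 20. TAP1 A_72_P172206 was 2.16 in Sd of pig 5, with the next Sd value at 1.09. The brightest TAP1 probe was 3.61 in WOd of pig 6, with the next WOd value at 4.32. TAP2 A_72_P013781 was 1.23 in WOd of pig 8 against 0.76 or less in the other WOd segments, and its WOd/Sd ratio was -0.77 in pig 5 with the next at 0.20.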

How the results depend on the processing

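The number of member probes past the raw p and 1.5-fold was 0 under the main setting in all 4 comparisons. It stayed 0 for WOd/Sd and onion/Sd under every alternative run. For YOd/Sd it was 2 without scaling between arrays (TAP1 A_72_P172206 and TAP2, both lower, as 11.4% of all probes passed and their median moved to -0.23), 1 with the slide as a block (SLA-6, 12.7% of all), and 0 to 1 with 1 pig left out (TAP2 A_72_P013781 without pig 1, 4.77% of all, and SLA-6 without pig 2, 12.7%). For the difference between both onion effects it was 1 without scaling (TAP2, 9.69% of all), 1 with the slide as a block (SLA-8, 10.2%) and 0 to 2 with 1 pig left out (TAP1 and TAP2 without pig 5, 7.11%). The spread between pigs passed for 4 member probes (32.2% of all), for 2 with no floor (26.4%), 1 with no filter (6.03%), 1 with the slide as a block (11.1%), 6 over the pigs whose arrays share a slide (24.9%), 9 with the authors' values (35.6%), 7 of them saturated on 13 or 14 arrays, and 1 to 6 with 1 pig left out (20.9% to 35.9%).

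The pig block was part of the main fit. With no replicate block the counts remained 0 in YOd/Sd, WOd/Sd and onion/Sd, and the onion/Sd change of SLA-6 kept its value of 0.34 but missed the raw p. Changes near 0 turned sign. SLA-8 (0.015) was -0.034 with quantile normalization, -0.14 without scaling, -0.0071 in the authors' values, -0.074 with the slide as a block and -0.057 to 0.10 with 1 pig left out. TAP1 (-0.04) ranged from -0.14 to 0.027 and TAP2 (-0.0051) from -0.17 to 0.11 with 1 pig left out. The unsaturated SLA-5 probe (-0.21) was 0.15 with the slide as a block and -0.36 to 0.083 with 1 pig left out. SLA-6 (0.34) ranged from 0.26 to 0.44 with 1 pig left out, was 0.19 without scaling, and also missed the raw p with no floor, with no filter and in the authors' values. The cause of these shifts was not tested.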
